A study of Rattus norvegicus with 4 samples.

Results

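The cytosolic ribosomal protein genes encode the proteins of the large and small subunits of the ribosome that translates nuclear mRNAs. They were chosen by name: symbols of the form Rpl or Rps with a number and at most 1 suffix letter (a, x or l), together with Rpsa and the stalk proteins Rplp0, Rplp1 and Rplp2. Each symbol was represented by its row of highest mean count. The rule uses no measured difference, but it was set with earlier results of these data known. This gave 79 of the 32623 genes in the table, 49 of the large subunit and 30 of the small. The 10 symbols with an l and a number, the 11 further rows that repeat a member's symbol and 16 rows with a -ps suffix were left out as possible pseudogenes.

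RNA sequencing was done on tendon stem/progenitor cells (TSPCs) of the rat, which grow from tendon as fibroblast-like cells, with 2 libraries given DMSO, the solvent control, and 2 given U0126. U0126 inhibits the MEK kinases, which phosphorylate and activate ERK. The sources used here do not give strain, age, dose or exposure time. The labels number the libraries of a group as biological replicates without naming an animal, culture or day, so the p-values speak of the spread among these 4 libraries, which may be technical. Every n below is 2 libraries per group.

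A ribosome holds a single copy of nearly every ribosomal protein, apart from the acidic stalk proteins, and cells make the set in matched amounts. Mammalian ribosomal protein mRNAs start with a C followed by a stretch of pyrimidines, the terminal oligopyrimidine (TOP) motif, through which mTOR signalling regulates how well they are translated. ERK signalling also reaches the translation machinery, in part through the RSK kinases that phosphorylate the protein of Rps6. RNA sequencing measures the amount of these mRNAs and not their translation.

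The libraries held between 36888913 and 42785190 counts. Of 12 fixed tendon and fibroblast markers 11 were tested, of which 5 rose and 2 fell. Of all genes tested, 8.41% rose and 11.5% fell. Fmod was 2.41-fold higher, Scx 1.70-fold higher and Bgn 1.67-fold higher, while Thy1 was 1.66-fold lower and Nes 9.19-fold lower. Col1a1 did not pass, with a mean of 22420 CPM in the controls, and the mature tendon marker Tnmd had at most 5 counts in a library. Of 6 muscle markers 4 were tested and all 4 fell, their summed level being 202 and 223 CPM in the controls and 84.0 and 125.8 CPM with U0126. Of 4 Schwann cell markers 2 were tested and both rose, from a sum of 13.3 and 8.18 CPM to 44.3 and 26.3 CPM, with the defining Sox10 at 0 counts in every library. Summed leukocyte markers reached at most 14.7 CPM, with Ptprc and Aif1 at 0. The epithelial markers Epcam, Cdh1 and Krt5 were at 0. In bulk RNA, fewer cells of a type and less RNA per cell cannot be told apart. The part of the tendon, muscle and Schwann marker differences in the results below was not tested.

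Most ribosomal protein mRNAs were slightly more abundant in the U0126 libraries, and a minority passed the test. All 79 members had enough counts to be tested, and 16 rose, 2 fell and 61 did not pass, in the quasi-likelihood test of edgeR, adjusted by Benjamini-Hochberg over 14023 genes, at a threshold of 0.05. The 16 risers are 20.3% of the members, beside 8.41% of all genes tested that rose, and the 2 that fell are 2.53%, beside 11.5% of all genes. The folds of the 16 risers lay between 1.24 and 1.43. Scaling by library totals alone left 5 members higher and 2 lower, so that 71.4% of the member calls were higher in place of 88.9%. Under that scaling the members higher were 6.33%, beside 6.78% of all genes tested that were higher and 13.2% that were lower, so the share of risers was no longer above that of all genes. With control 1 or control 2 left out, 0 members passed edgeR's test in either direction, beside 2.12% and 2.05% of all genes that were higher in those fits. Without control 1 the members at an unadjusted p under 0.05 were 21 higher and 1 lower, beside 9.09% of all genes higher and 11.4% lower. Without control 2 they were 3 higher and 2 lower, beside 8.42% and 11.2% of all genes. The members' median log2 fold change was 0.18 without control 1 and 0.14 without control 2. DESeq2 on all 4 libraries called 22 members higher and 1 lower, beside 7.19% and 10.4% of the 15462 genes to which it gave an adjusted p.

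The direction was shared more widely than the calls. The log2 fold change was above 0 in 66 of the 79 members (83.5%), beside 51.6% of all genes tested, and its median was 0.15 over the members and 0.02 over all genes. Both U0126 libraries were above both controls for 57 members, beside 31.8% of all genes tested, and below both for 7, beside 31.0%. The groups overlapped for the remaining 15. The median was 0.15 for the large subunit, of which 11 members rose and 2 fell, and 0.13 for the small subunit, of which 5 rose and 0 fell. In the small subunit the count lower was 0 also at an unadjusted p under 0.05, with DESeq2 and with limma-voom. A further 12 members had an adjusted p between 0.05 and 0.1, all with log2 fold changes above 0. At an unadjusted p under 0.05 there were 36 members, beside 33.8% of all genes tested. Of these members 33 were higher and 3 lower, beside 16.0% and 17.8% of all genes.

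**Figure D1:**
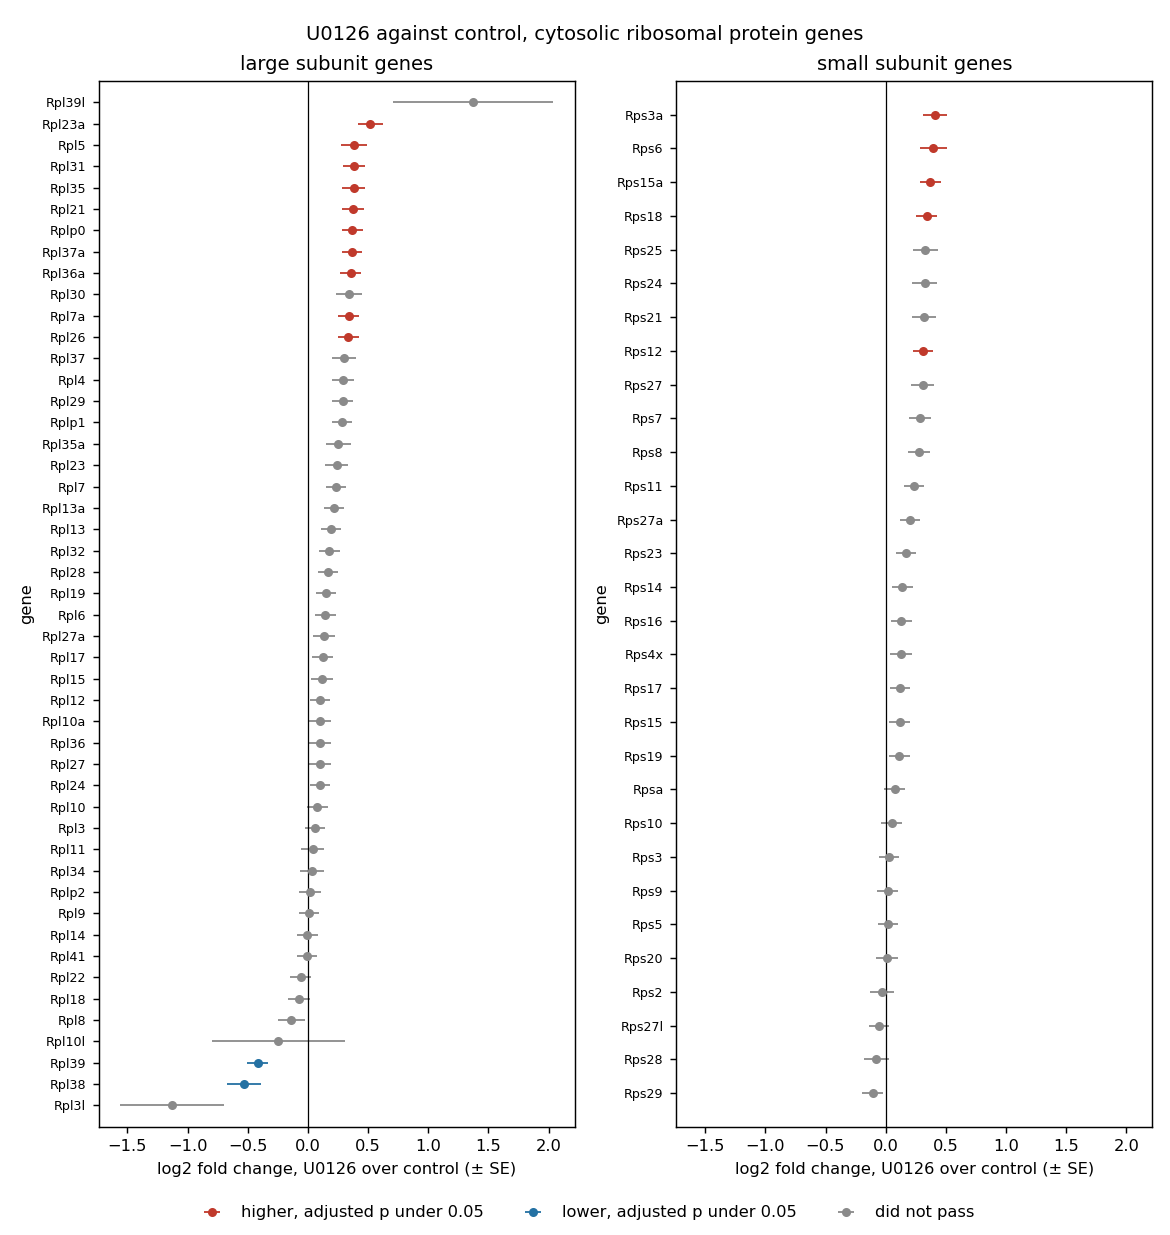
Log2 fold change of U0126 over control for the ribosomal protein genes reported here, ordered by value, with bars of 1 standard error, for the large and the small subunit. Red points rose, blue points fell and grey points did not pass an edgeR adjusted p of 0.05. Most points lie above 0, and the highest riser, Rpl23a, is at 0.52.

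The plot of log2 fold changes shows a continuous slope from members near 0 to the risers, with no gap between those that passed and those just short of the threshold. Among the 75 members with a mean deposited TPM (a level per length of transcript) over 100, the SD of the log2 fold changes was 0.17, beside a median standard error of 0.09. The lowest count of any of these 75 in a library was 1632.

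The sequence around the start of transcription is shown because the TOP tract is what ribosomal protein mRNAs have in common, and to set risers beside members that did not pass. Of the members, 58 had a RefSeq promoter on the chromosome of their row. A run of at least 8 pyrimidines (C or T, on the coding strand), within 25 bases on either side of the annotated start, was present in 45 of these 58 (77.6%), beside 18.9% of 21851 protein-coding promoters. The run was found in 11 of 14 risers (78.6%) and in 33 of 43 members that did not pass (76.7%). Each line gives 15 bases before to 15 bases after the RefSeq start in the GRCr8 build, 5′ to 3′, and the capitals mark the longest unbroken pyrimidine run in those 30 bases. The first 7 genes rose, Rpl39 fell, and the last 3 did not pass.
Rps3a, chr2:173827028-173827057, minus strand: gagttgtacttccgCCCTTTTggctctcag
Rpl5, chr14:1995211-1995240, minus strand: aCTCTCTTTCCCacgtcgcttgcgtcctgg
Rpl31, chr9:49143096-49143125, plus strand: ccacaatccctcgcgCCTTTCCTTTCCaac
Rpl35, chr3:43165907-43165936, minus strand: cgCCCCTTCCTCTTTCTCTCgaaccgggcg
Rpl21, chr12:13386139-13386168, minus strand: TTCCTTTCCgccggggcagccatcttccag
Rps15a, chr1:181860270-181860299, minus strand: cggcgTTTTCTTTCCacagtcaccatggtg
Rplp0, chr12:46718376-46718405, minus strand: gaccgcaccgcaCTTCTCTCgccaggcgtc
Rpl39, chrX:121195882-121195911, minus strand: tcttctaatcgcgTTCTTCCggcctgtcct
Rpl22, chr5:168117946-168117975, plus strand: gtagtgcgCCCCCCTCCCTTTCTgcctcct
Rps2, chr10:14251833-14251862, plus strand: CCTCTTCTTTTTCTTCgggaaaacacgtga
Rpl11, chr5:153560788-153560817, minus strand: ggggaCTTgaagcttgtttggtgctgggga

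Rpl35, which rose, and Rpl22 and Rps2, which did not pass, all had long runs in this window. The longest run of Rpl11 had 3 bases. The marked runs of Rpl5, Rpl21, Rps15a and Rpl11 lie before the annotated start, outside the mRNA by that annotation. So does all of the Rps2 run but its last base. Whether the annotated starts are exact was not tested, so these runs do not show which mRNAs carry a TOP motif. The motif CCGGAAG, bound by ETS family factors, some of which ERK phosphorylates, was searched on both strands from 250 bases before to 50 after the start. It was found in 18 of 58 members (31.0%), 5 of 14 risers (35.7%), 12 of 43 members that did not pass (27.9%) and 10.7% of all protein-coding promoters. The E-box CACGTG, bound by MYC and related factors, was found in 5 members (8.62%), 0 of the 14 risers and 7.02% of all promoters. These matches describe letters in RefSeq sequence and not binding.

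In the large subunit, the new chain leaves through a tunnel, and proteins at its exit were found among the risers, among those that did not pass and, with Rpl39 in the tunnel wall, among those that fell. Rpl23a (rn6 chr10:65441295-65443981, minus strand), which lies at this exit and contacts the signal recognition particle, was at 565 and 495 CPM in the controls and 785 and 733 CPM with U0126. The U0126 libraries were well above the controls, and Rpl23a was 1.43-fold higher (log2 fold change 0.52 ± 0.10 SE, edgeR adjusted p = 0.0133), the highest fold of any riser. Rpl31, also at the tunnel exit, was at 359.9 and 324 CPM in the controls and 455 and 437 CPM with U0126. It was 1.30-fold higher (log2 fold change 0.38 ± 0.09 SE, edgeR adjusted p = 0.0308), with no overlap between the groups. Rpl35, another exit-site protein, was at 471 and 420.2 CPM in the controls and 595 and 565 CPM with U0126. It was 1.30-fold higher (log2 fold change 0.38 ± 0.10 SE, edgeR adjusted p = 0.0346), and again the lower U0126 library was above the higher control. Rpl26, which lies near the exit, was at 433 and 406 CPM in the controls and 523 and 535 CPM with U0126. The groups did not overlap, and Rpl26 was 1.26-fold higher (log2 fold change 0.33 ± 0.09 SE, edgeR adjusted p = 0.0387). Rpl17, Rpl19 and Rpl22, also near the exit, did not pass, with log2 fold changes of 0.12, 0.15 and -0.06 (edgeR adjusted p = 0.392, 0.271 and 0.670).

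Rpl5 carries the 5S rRNA into the large subunit together with Rpl11, and both proteins can bind MDM2 and stabilise p53. Rpl5 was at 545 and 479 CPM in the controls and 707 and 628 CPM with U0126, U0126 library 1 being the highest and control 2 the lowest. It was 1.30-fold higher (log2 fold change 0.38 ± 0.11 SE, edgeR adjusted p = 0.0476). Its partner Rpl11 was at 425 and 380.2 CPM in the controls and 409 and 419 CPM with U0126. Here the U0126 values lay between the 2 controls, and Rpl11 did not pass (log2 fold change 0.04 ± 0.09 SE, edgeR adjusted p = 0.809). The difference between the partners was not tested.

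Other large-subunit risers had a like size of change. Rpl21 was at 235 and 220.0 CPM in the controls and 303 and 287 CPM with U0126, without overlap (1.30-fold higher, edgeR adjusted p = 0.0282). Rpl37a was 1.29-fold higher, Rpl36a 1.28-fold higher and Rpl7a 1.26-fold higher, with edgeR adjusted p of 0.0263, 0.0304 and 0.0360. In all 3 the U0126 libraries were above the controls. The Rpl7a row held 42.5% of the counts in rows that name that protein.

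The stalk of the large subunit, where elongation factors dock, is built of Rplp0 and the acidic proteins Rplp1 and Rplp2. Rplp0 (rn6 chr12:46791528-46794797, minus strand), the anchor of the stalk and a gene often used as a reference in quantitative PCR, was at 1712 and 1645 CPM in the controls and 2139.7 and 2188 CPM with U0126. Both U0126 libraries stood above both controls, with means of 1678 ± 47.2 and 2164 ± 34.4 CPM (SD, n = 2), and Rplp0 was 1.29-fold higher (log2 fold change 0.37 ± 0.09 SE, edgeR adjusted p = 0.0271). Rplp1 was at 904 and 901 CPM in the controls and 1088 and 1108 CPM with U0126. The groups did not overlap and the difference just missed the threshold (log2 fold change 0.28 ± 0.09 SE, edgeR adjusted p = 0.0594), passing it with DESeq2 and limma-voom. Rplp2 was at 57.5 and 59.0 CPM in the controls and 56.8 and 61.3 CPM with U0126. Its groups overlapped and it did not pass (log2 fold change 0.02 ± 0.09 SE, edgeR adjusted p = 0.908), its row holding 26.2% of the counts in rows that name that protein.

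In the small subunit, 5 members rose. Rps6 (rn6 chr5:105209846-105212173, minus strand), whose protein is phosphorylated by the S6 and RSK kinases, was at 304 and 268 CPM in the controls and 404 and 348 CPM with U0126. The U0126 libraries were above both controls but differed from each other by more than the controls did, and Rps6 was 1.32-fold higher (log2 fold change 0.40 ± 0.11 SE, edgeR adjusted p = 0.0493). That call was among the least stable, being lost with RLE scaling, with no filter on low counts and without U0126 library 1. Rps3a, which lines the exit of the mRNA channel, was at 666 and 610.1 CPM in the controls and 896 and 797 CPM with U0126. It was 1.33-fold higher (log2 fold change 0.41 ± 0.10 SE, edgeR adjusted p = 0.0320) without overlap between the groups.

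Rps15a, of the body of the small subunit, was at 313 and 289 CPM in the controls and 395 and 384 CPM with U0126. It was 1.29-fold higher (edgeR adjusted p = 0.0289), the groups not overlapping. Rps18, of the head of the small subunit, was at 485 and 462 CPM in the controls and 606 and 593 CPM with U0126. It was 1.27-fold higher (edgeR adjusted p = 0.0344), and both U0126 libraries were above both controls. Rps12, also of the head, was at 371 and 368 CPM in the controls and 457 CPM in both U0126 libraries. Both libraries of each group were nearly equal, and Rps12 was 1.24-fold higher (edgeR adjusted p = 0.0432).

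**Figure D2:**
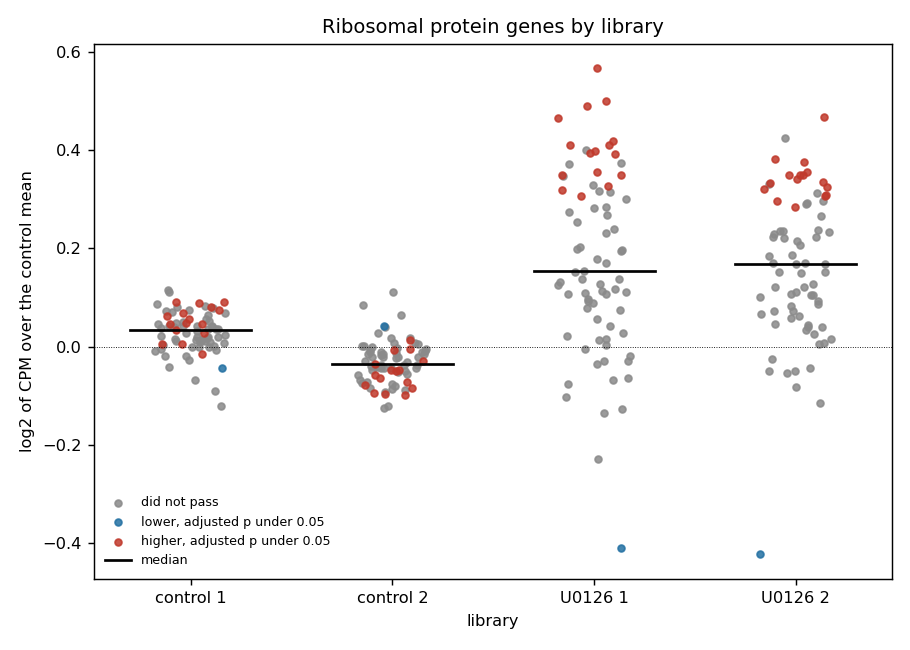
Level of each of the 75 ribosomal protein genes with a mean TPM over 100 in each library, as log2 of its CPM over the mean of the controls, coloured by call. The medians were 0.03 and -0.04 in controls 1 and 2, and 0.15 and 0.17 in U0126 libraries 1 and 2.

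The plot by library shows that the controls differed from each other in the same sense for most members. Of the 75 members, 61 were above the control mean in control 1 and 14 in control 2. In U0126 libraries 1 and 2, 62 and 67 of the 75 were above it.

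Members that did not pass included several of the most abundant. Rps2, which lines the channel where mRNA enters, was at 1356 and 1283 CPM in the controls and 1202 and 1382 CPM with U0126, and its U0126 libraries were the highest and the lowest of all (log2 fold change -0.03 ± 0.10 SE, edgeR adjusted p = 0.868). Rps3, of the same channel, was at 546 and 519.6 CPM in the controls and 543 CPM in both U0126 libraries, the U0126 values lying between the controls (log2 fold change 0.03 ± 0.09 SE, edgeR adjusted p = 0.860). Rpsa, known also as the laminin receptor precursor, was at 1479 and 1386 CPM in the controls and 1475 and 1540.3 CPM with U0126. Its groups overlapped (log2 fold change 0.07 ± 0.09 SE, edgeR adjusted p = 0.612). Rpl41, the shortest ribosomal protein, was at 809 and 798 CPM in the controls and 787 and 813 CPM with U0126. Those ranges overlapped too (log2 fold change -0.01 ± 0.09 SE, edgeR adjusted p = 0.969).

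Rpl3, which reaches towards the peptidyl transferase centre, was at 704 and 693 CPM in the controls and 738 and 718 CPM with U0126. Both U0126 libraries were above both controls, by less than the test could separate (log2 fold change 0.06 ± 0.09 SE, edgeR adjusted p = 0.675). Rpl10, one of the last proteins to join the large subunit, was at 585 and 567 CPM in the controls and 599 and 618 CPM with U0126, again without overlap and without passing (log2 fold change 0.08 ± 0.09 SE, edgeR adjusted p = 0.564). Rps27a, made as a fusion with ubiquitin, was at 401 CPM in both controls and 459 and 465 CPM with U0126. Its groups did not overlap and it did not pass (log2 fold change 0.20 ± 0.08 SE, edgeR adjusted p = 0.138).

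Some members lay just short of the threshold. Rpl29 was at 333 and 322 CPM in the controls and 399 and 401 CPM with U0126, the groups standing apart (log2 fold change 0.29 ± 0.08 SE, edgeR adjusted p = 0.0551). It passed with DESeq2, with limma-voom and with the length trend removed. Rps27 was at 342 and 317 CPM in the controls and 427 and 387 CPM with U0126, without overlap (log2 fold change 0.31 ± 0.10 SE, edgeR adjusted p = 0.0679), and passed with DESeq2. Rpl7 was at 554 and 541 CPM in the controls and 647 and 642 CPM with U0126, without overlap (log2 fold change 0.23 ± 0.08 SE, edgeR adjusted p = 0.0998).

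Rpl39 and Rpl38 were the only members that fell in the test on all 4 libraries. Rpl39 (rn6 chrX:123705235-123708211, minus strand), a very small protein that lines the exit tunnel, was at 131 and 139 CPM in the controls and 102 and 101 CPM with U0126. Both U0126 libraries were below both controls, and Rpl39 was 1.33-fold lower (log2 fold change -0.42 ± 0.09 SE, edgeR adjusted p = 0.0164). A second, much smaller row named Rpl39, left out by the rule, was at 3.15 CPM in both controls and 4.64 and 4.58 CPM with U0126, with the U0126 libraries above the controls (log2 fold change 0.55 ± 0.19 SE, edgeR adjusted p = 0.0941). With all rows that name the Rpl39 protein added together, the log2 fold change was -0.24 ± 0.09 SE and the call was lost, at an edgeR adjusted p of 0.0981. Over all settings tried its adjusted p lay between 0.00191 and 0.216.

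Rpl38 (rn6 chr2:199479007-199479309, minus strand), whose loss in mice alters the translation of Hox mRNAs, was at 12.8 and 12.2 CPM in the controls and 8.20 and 9.06 CPM with U0126. Both U0126 libraries were below both controls, and the row was 1.44-fold lower (log2 fold change -0.53 ± 0.14 SE, edgeR adjusted p = 0.0406). This row lies on another chromosome than the RefSeq gene of that symbol and held 29.9% of the counts in rows that name the protein. With those rows added together the log2 fold change was -0.35 ± 0.10 SE, with an edgeR adjusted p of 0.0478. Over all settings tried its adjusted p lay between 0.0122 and 0.280, and the call was lost with DESeq2.

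Several ribosomal proteins have paralogues that are used in particular tissues. Rpl22 binds the Epstein-Barr virus small RNA and, in mouse, its protein lowers the mRNA of its paralogue Rpl22l1. Rpl22 was at 153 and 147 CPM in the controls and 143 and 145 CPM with U0126. Its U0126 values were slightly below both controls, and it did not pass (log2 fold change -0.06 ± 0.09 SE, edgeR adjusted p = 0.670). Rpl22l1 (rn6 chr2:115362799-115364729, plus strand), left out of the members by its suffix and described here for its kinship to Rpl22, was at 34.7 and 38.2 CPM in the controls and 14.9 and 14.8 CPM with U0126. The U0126 libraries were far below the controls, and Rpl22l1 was 2.46-fold lower (log2 fold change -1.30 ± 0.11 SE, edgeR adjusted p = 5.18e-04). It passed in every setting tried, with adjusted p of at most 0.0126.

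The other paralogues did not pass. Rps27l, which in human cells is a target of p53, was at 138 and 135 CPM in the controls and 130.3 and 131 CPM with U0126 (log2 fold change -0.06 ± 0.08 SE, edgeR adjusted p = 0.669). Rpl7l1, left out by its suffix, was at 36.1 and 36.0 CPM in the controls and 32.5 and 38.1 CPM with U0126 (log2 fold change -0.03 ± 0.11 SE, edgeR adjusted p = 0.881). Rpl3l, which replaces Rpl3 in striated muscle, had counts of 54, 52, 16 and 27 in controls 1 and 2 and U0126 libraries 1 and 2. The U0126 counts were below the controls without passing (log2 fold change -1.13 ± 0.43 SE, edgeR adjusted p = 0.115), and the row passed as lower without U0126 library 2. Beside it, all 4 tested muscle markers fell, as given above, and their part in this difference was not tested. Rpl10l and Rpl39l, mostly known from testis, were near the limit of detection, with counts of 17, 15, 10 and 14 and counts of 12, 6, 14 and 28 in the same order of libraries, and neither passed (edgeR adjusted p = 0.793 and 0.198).

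Levels per length were similar over most of the set. The median deposited TPM over the 79 members was 999 in the controls and 1064 with U0126, and 58 of the 79 lay within 2-fold of the control median. The 4 highest by mean TPM were Rplp1 at 3554, Rpl41 at 3206, Rplp0 at 3096 and Rps2 at 2616. Rplp1 and Rpl41 overlapped in the controls, at 3224 and 3338 TPM against 3242 and 3319 TPM, and with U0126 Rplp1 was the higher, at 3767 and 3886 TPM against 3063 and 3201 TPM. The 4 lowest were Rpl10l at 0.942, Rpl3l at 1.22, Rpl39l at 1.35 and Rpl38 at 61.4. The effective length implied for Rpl7 was 5299 bases, beside a median of 609 over the members, so its TPM is not comparable with theirs.

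**Figure D3:**
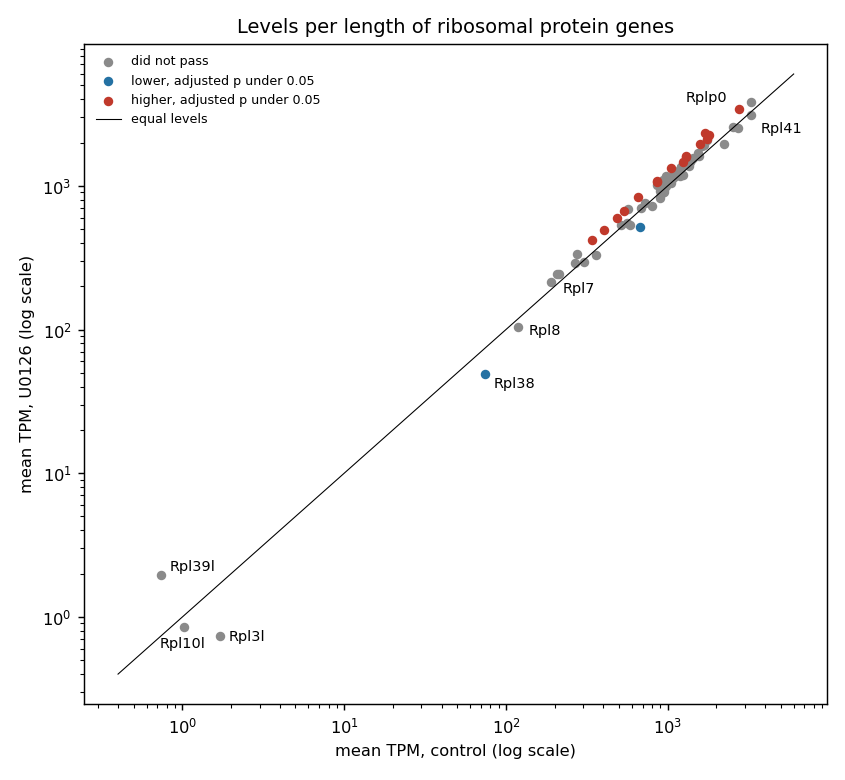
Mean deposited TPM of each ribosomal protein gene in the controls (x axis) and with U0126 (y axis), both axes logarithmic, coloured by call, with the line of equal levels. Most members lie near the control median of 999 TPM, while Rpl10l, Rpl3l and Rpl39l lie near 1 TPM.

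Several rows of low level are rows of uncertain identity. Rows other than the chosen one named the same protein for 64 of the 75 members compared, and 8 members held less than 50% of the counts naming their protein. The lowest was Rpl8, with 10.3%, whose row was at 51.7 and 58.5 CPM in the controls and 47.0 and 53.2 CPM with U0126 and did not pass (log2 fold change -0.14 ± 0.11 SE, edgeR adjusted p = 0.435). The rows of Rpl30, Rpl35a, Rpl37, Rpl38, Rpl8 and Rps19 lie on another chromosome than the RefSeq gene of that symbol. Without those 6 rows, 16 members rose and 1 fell.

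The members together held a larger share of both U0126 libraries. They held 3.22% of the counts in control 1 (95% Wilson interval 3.21 to 3.22), 3.06% in control 2 (3.06 to 3.07), 3.46% in U0126 library 1 (3.45 to 3.46) and 3.45% in U0126 library 2 (3.44 to 3.45). The intervals cover counting error only. Both U0126 shares were above both controls, by 0.313 percentage points between the means of 3.14 ± 0.107 and 3.45 ± 0.00579 (SD, n = 2). The exact two-sided permutation p was 0.333, the smallest that 2 against 2 libraries can give. The share of counts from genes encoded in mitochondria also moved with the groups, being 3.48% and 2.98% without U0126 and 5.64% and 4.82% with it. With these genes out of the total the difference in the members' share was 0.398 percentage points.

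Genes that work with ribosomal proteins were compared through 7 fixed lists of translation and ribosome assembly genes. Of 152 genes fixed, 149 were tested, of which 6 rose (4.03%) and 8 fell (5.37%), beside 8.41% and 11.5% of all genes tested, and their median log2 fold change was -0.01. Of 20 TOP mRNAs other than ribosomal proteins, 3 rose and 2 fell, with a median of 0.06. The log2 fold change was above 0 in 16 of these 20 (80.0%), beside 83.5% of the cytosolic ribosomal protein genes and 51.6% of all genes tested. Both U0126 libraries were above both controls for 8 of the 20, beside 31.8% of all genes tested, and below both for 3, beside 31.0%. Whether this list differs from the ribosomal protein genes was not tested. Tpt1, the translationally controlled tumour protein, was at 1282 and 1173 CPM in the controls and 1771 and 1665 CPM with U0126. The U0126 libraries were the higher (1.40-fold higher, log2 fold change 0.48 ± 0.09 SE, edgeR adjusted p = 0.0131). Eif3h, a subunit of initiation factor eIF3, was 1.36-fold higher (edgeR adjusted p = 0.0193), and Eef1d, which recharges the elongation factor eEF1A, was 1.33-fold lower (edgeR adjusted p = 0.0254). The remaining calls, which were named with their values known, were the elongation factor Eef1a1, 1.25-fold higher, and the RNA-binding protein Hnrnpa1, 1.49-fold lower (edgeR adjusted p = 0.0467 and 0.0304).

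Ribosome biogenesis factors process ribosomal RNA and assemble the subunits. Of 60 tested, 0 rose and 3 fell (5.0%) by edgeR, beside 8.41% and 11.5% of all genes tested, with a median of 0.00. DESeq2 and limma-voom gave the same counts. At an unadjusted p under 0.05, 5 were higher and 8 lower, beside 16.0% and 17.8% of all genes tested. Nhp2, a core protein of the box H/ACA particles that make pseudouridine, was at 18.9 and 18.7 CPM in the controls and 10.4 and 11.6 CPM with U0126. The U0126 libraries were the lower (1.71-fold lower, log2 fold change -0.77 ± 0.13 SE, edgeR adjusted p = 0.00755). Gar1, another protein of these particles, was 1.44-fold lower, and Fbl, the methyltransferase of the box C/D particles, was 1.32-fold lower (edgeR adjusted p = 0.0311 and 0.0291). Other core proteins of the same particles did not pass: Dkc1 and Nop10 of the H/ACA particles gave log2 fold changes of -0.04 and 0.31, and Nop56 and Nop58 of the C/D particles gave 0.17 and -0.05. These 4 were named with their values known.

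Of 15 genes of RNA polymerase I and its factors, 1 rose and 1 fell, with a median of -0.01: Ubtf, which opens ribosomal DNA for transcription, was 1.34-fold higher, and Cd3eap, a polymerase I subunit, was 1.30-fold lower (edgeR adjusted p = 0.0155 and 0.0344). Of 25 other translation factors 1 rose (4.0%) and 2 fell (8.0%), with a median of -0.08. For this list and the others here, the shares of all genes tested were 8.41% higher and 11.5% lower. Eif3m rose by 0.44, and Eif2b2 and Eif4a1 gave -0.42 and -0.34 on the log2 scale (edgeR adjusted p = 0.0257, 0.0215 and 0.0475). None of 10 ribosomal protein chaperones, which escort the new proteins to the nucleolus, passed by edgeR or limma-voom, with a median of -0.09. DESeq2 called 1 lower, beside 10.4% of the genes to which it gave an adjusted p. With edgeR 1 was lower at an unadjusted p under 0.05, beside 17.8% of all genes tested. Ipo5, an importer of ribosomal proteins and the most abundant of them, was at 154 and 155 CPM in the controls and 136 and 146 CPM with U0126 (log2 fold change -0.14 ± 0.09 SE, edgeR adjusted p = 0.327). Of 15 regulators of TOP mRNAs and S6 kinases 1 rose, Myc, 1.29-fold higher (edgeR adjusted p = 0.0497, between 0.0272 and 0.390 over all settings tried). The 4 ribosomal proteins whose names fall outside the rule did not pass, with a median of 0.06, and 0 passed at an unadjusted p under 0.05, with DESeq2 or with limma-voom. Rack1, a signalling scaffold on the small subunit and the most abundant of them, was at 783 and 744 CPM in the controls and 802 and 867 CPM with U0126 (log2 fold change 0.13 ± 0.09 SE, edgeR adjusted p = 0.376).

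**Figure D4:**
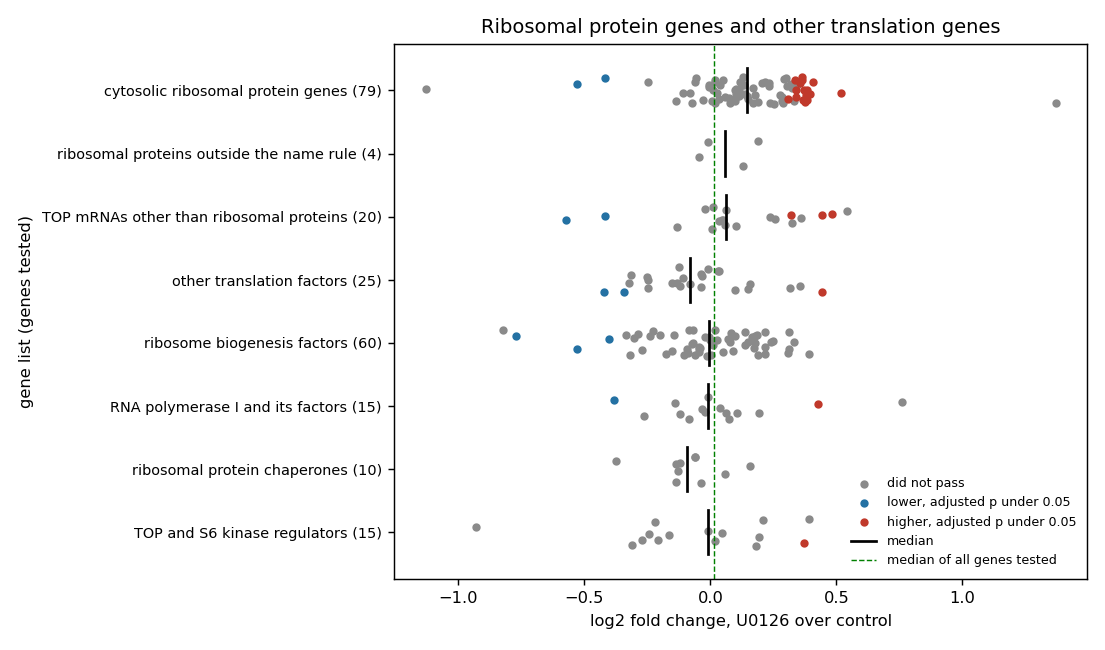
Log2 fold change of U0126 over control for each gene (points) of the cytosolic ribosomal protein genes and of the 7 fixed lists, with the median of each (black bar) and of all genes tested (dashed line). The cytosolic ribosomal protein genes have a median of 0.15, and the medians of the 7 lists lie between -0.09 and 0.06.

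The proteins of the mitochondrial ribosome, which translates the few mRNAs made in mitochondria, were measured in the same fit. Of 74 tested, 1 rose (1.35%) and 6 fell (8.11%), beside 8.41% and 11.5% of all genes tested. Their median log2 fold change was -0.08, with 39.2% of values above 0, beside 83.5% for the cytosolic members and 51.6% of all genes. The difference between these sets was not tested.

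**Figure D5:**
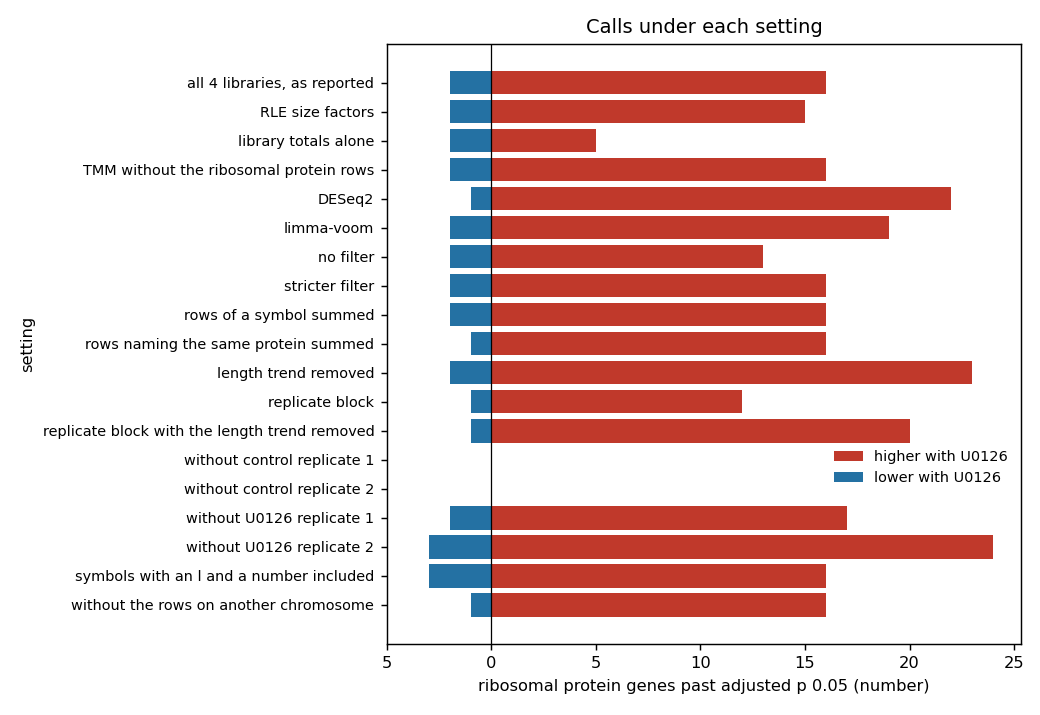
Number of ribosomal protein genes that rose (red, to the right) and fell (blue, to the left) at an adjusted p of 0.05 under each setting. The count of risers was between 12 and 24 except with library totals alone, at 5, and with control 1 or control 2 left out, at 0.

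The plot of calls by setting shows the fewest risers with a control left out. The calls over all genes were also fewest in those fits. Leaving out U0126 library 1 gave 17 higher and 2 lower, and leaving out U0126 library 2 gave 24 higher and 3 lower, beside 9.64% and 14.8% of all genes called higher in those fits. The median log2 fold change of the members stayed between 0.09 and 0.18 in every setting tried.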

How the data were processed

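The authors deposited 1 table with whole-number counts, TPM and FPKM per gene and library, per the file headers. The deposited counts were used in every test, the deposited TPM for levels per length, and the deposited FPKM for the effective length of each gene and nothing else. Per the labels' protocols, RNA was taken up in Trizol and made into Illumina libraries. Per the submitters' processing notes, the build was rn6. The sources used here do not give the aligner, counter, strand setting or annotation release, so how reads were divided among near-identical copies is unknown. Column headers were tied to samples by letter and number, with 0 unmatched.

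Of 32623 genes, 14023 passed filterByExpr (minimum count 10, minimum total 15). The comparison of U0126 with control used TMM scaling and the two-sided quasi-likelihood test of edgeR, with Benjamini-Hochberg adjustment over all tested genes. Tools were edgeR 4.0.16, DESeq2 1.42.0 and limma 3.58.1 under R 4.3.3. CPM are counts scaled to the TMM library size, and fold changes carry a prior count of 0.125. The test was tried on simulated data. Members, lists and tests were chosen with earlier results of these data known. The 55 genes named by rule were the 8 called members of largest change in each direction, the 4 highest and 4 lowest in TPM, 22 fixed by name, the 2 on each side of the threshold and, in each list, the 3 called genes of smallest adjusted p or the most abundant. Some genes are counted but their own results are not reported here. The promoters are from RefSeq (GRCr8), and 77 of 79 symbols were found there.

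Alternatives were RLE scaling, library totals, TMM without ribosomal protein rows, DESeq2, limma-voom, no filter and a filter of 1 CPM in every library, summing rows of a symbol, removing a length trend, a replicate block, and leaving out each library. Summing rows that name the same protein, leaving out rows on another chromosome and including symbols with an l and a number were chosen after seeing the data. Dose and time are not analysed here.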

Additional observations from a re-analysis of the deposited data

Results flagged for a closer look

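Rows that repeat a member's symbol were outside the main measurement, and 3 of the 10 tested passed the test, all as higher with U0126. Of all genes tested, 8.41% passed as higher and 11.5% as lower. A second row of Rps6 was at 229 and 195 CPM in the controls and 313 and 282 CPM with U0126, without overlap between the groups (log2 fold change 0.49 ± 0.11 SE, edgeR adjusted p = 0.0229). A second row of Rpl7a was at 162 and 152 CPM in the controls and 201 and 207 CPM with U0126, also without overlap (log2 fold change 0.38 ± 0.09 SE, edgeR adjusted p = 0.0251). A second row of Rps27a was at 76.6 and 70.4 CPM in the controls and 112 and 103 CPM with U0126, the groups standing apart (log2 fold change 0.55 ± 0.10 SE, edgeR adjusted p = 0.00814), while the Rps27a row among the members did not pass. These rows may share reads with the member rows, which was not tested.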

How the results depend on the processing

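With library totals alone 5 ribosomal protein genes were higher and the median log2 fold change was 0.092, and Rpl31, Rpl35, Rpl5, Rps3a and Rps6 were among those that no longer passed. A count of 1 member lower, in place of 2, was found with DESeq2, with rows naming the same protein summed, without the rows on another chromosome, and with the replicate block alone or together with the length trend removed. With the replicate block 12 members were higher and 1 lower, and 4 genes of the translation and assembly lists were lower in place of 8. Over the genes tested, same-numbered libraries did not deviate together (r = -0.03). With 2 libraries per group both pairs must give the same r, so it cannot decide whether libraries were paired. The labels do not say. The difference in the share of counts was 0.398 percentage points without mitochondrially encoded genes and 0.772 with deposited TPM. Leaving out 1 library at a time gave between 0 and 24 members higher and 0 and 3 lower, and between 0 and 19 list genes higher and 0 and 20 lower. Both values of 0 came from leaving out a control, which leaves a lone control assumed to vary like the other group. With the filter of 1 CPM in every library, 8 of the 55 named genes were not tested. The cause of these changes was not tested. No named gene changed sign in a called value. Counts of 1632 or more stand behind the 75 abundant members, while Rpl10l and Rpl39l had too few counts to separate a small difference from none.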

Other observations

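Among the other rows left out, 7 of the 16 rows with a -ps suffix were tested and 0 passed by edgeR, DESeq2 or limma-voom, with a median log2 fold change of 0.05. At an unadjusted p under 0.05, 1 was higher and 1 lower, beside 16.0% and 17.8% of all genes tested. Of the 11 rows whose symbol has an l and a number, 7 were tested. By all 3 tools 0 rose and 1 fell, Rpl22l1, beside 8.41% and 11.5% of all genes with edgeR. No other of these rows had an unadjusted p under 0.05. A second row of Rpl13a was at 5.57 and 2.94 CPM in the controls and 20.3 and 7.32 CPM with U0126. U0126 library 1 was the highest, and the difference did not pass (log2 fold change 1.70 ± 0.49 SE, edgeR adjusted p = 0.0514).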
